A study of Homo sapiens with 19 samples.

Results

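Intergenic OCT-2 peaks within 50 kb of genes are the stretches of DNA bound by OCT-2 that lie outside superenhancers and outside genes, but not far from a gene. They were taken from the authors' list of OCT-2 peaks in 231Pa_Luc+OCT-2 cells. A peak was a member if it overlapped no superenhancer of the same cells and no protein-coding gene body, and if it lay more than 1 kb and at most 50 kb from the nearest protein-coding gene. The rule was met by 1047 of 5736 peaks on chromosomes 1 to 22 and X (18.3%). The members were thus chosen by measured values, the positions of peaks and superenhancers; their numbers per class and their distances are given as a description, without a test.

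The series profiled human triple-negative breast cancer lines by ChIP-seq, which sequences the DNA that an antibody pulls down with a chromatin protein, and holds 19 samples. 231Pa_Luc+OCT-2 is the parental MDA-MB-231 line with stable transgenes for luciferase and POU2F2, the gene of OCT-2. It is a polyclonal pool, and 2 replicates each were precipitated for OCT-2 and for H3K27ac, the histone mark from which superenhancers are called. 231Pa_Luc+GFP is the control pool with luciferase and GFP transgenes, with 2 H3K27ac replicates. Both pools carry luciferase. No OCT-2 ChIP of 231Pa_Luc+GFP and no input of either pool was analysed here, so binding of the transgene product and of OCT-2 made by the cells' own gene cannot be told apart. The lists hold positions that the authors calculated from both replicates, with no read count, score or value per replicate. Depth is therefore unknown, no comparison over samples was possible, and each interval below is an exact 95% interval by the Clopper-Pearson method, covering counting error only. Of 7 basal and mesenchymal marker genes, 6 overlapped a superenhancer in both pools (AXL, CD44, EGFR, ITGB4, LAMB3 and VIM), whereas none of 4 luminal, 5 B lymphocyte and 2 fibroblast markers did in either pool. Of 2 endothelial markers, PECAM1 overlapped a superenhancer of the GFP pool.

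OCT-2 is a POU-domain transcription factor best known from B lymphocytes, where it binds the octamer, an element of immunoglobulin promoters and enhancers. Its relative OCT-1, present in most cells, binds the same element, which also stands in front of small nuclear RNA genes and histone genes. Binding between genes is often at enhancers, elements that act on a promoter at a distance, and AP-1, a dimer of FOS and JUN family proteins, is a frequent occupant of enhancers in mesenchymal breast cancer cells.

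Sequence was at hand for members that reach the start of a noncoding gene. In the RefSeq windows of GRCh38.p14, which run from 250 bases before to 50 bases after a start site, 20 members met 22 windows of 20 genes, all of them long noncoding RNA (lncRNA) genes. The start site itself lay in the peak in 16 windows, and a median of 208.5 bases of each window was covered. Shown first are the 3 windows that hold the octamer, ATGCAAAT on either strand. They span the start sites of LOC105374852 (chr2:88016628-88016927, + strand, the last of its 3 windows), MEF2C-AS2 (chr5:88675968-88676267, + strand) and LOC107986606 (chr6:54801782-54802081, - strand). Capitals mark the octamer and the AP-1 site TGAGTCA, on either strand, and bases run 5′ to 3′ on the gene's strand.
LOC105374852: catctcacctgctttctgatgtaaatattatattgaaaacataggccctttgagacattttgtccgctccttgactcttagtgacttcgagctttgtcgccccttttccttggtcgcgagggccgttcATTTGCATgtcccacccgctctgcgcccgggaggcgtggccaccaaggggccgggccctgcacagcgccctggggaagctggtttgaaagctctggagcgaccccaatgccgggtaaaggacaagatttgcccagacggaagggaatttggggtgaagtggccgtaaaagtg
MEF2C-AS2: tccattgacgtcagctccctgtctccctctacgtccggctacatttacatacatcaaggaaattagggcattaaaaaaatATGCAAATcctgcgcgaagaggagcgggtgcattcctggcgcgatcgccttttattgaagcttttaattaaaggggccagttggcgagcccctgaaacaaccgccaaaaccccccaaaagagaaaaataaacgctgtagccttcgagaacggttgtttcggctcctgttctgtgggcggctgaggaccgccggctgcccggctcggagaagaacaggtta
LOC107986606: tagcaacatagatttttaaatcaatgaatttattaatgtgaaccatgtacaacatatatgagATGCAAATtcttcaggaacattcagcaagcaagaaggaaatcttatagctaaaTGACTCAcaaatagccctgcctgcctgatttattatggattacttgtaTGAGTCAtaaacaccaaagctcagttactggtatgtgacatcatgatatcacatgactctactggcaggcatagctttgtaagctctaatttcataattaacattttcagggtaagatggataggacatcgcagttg
The octamer began 122 bases before the start site of LOC105374852, 170 before that of MEF2C-AS2 and 188 before that of LOC107986606, and it lay inside the peak each time. The peak at MEF2C-AS2 lies 40.9 kb from MEF2C, a transcription factor gene of muscle, neurons and lymphocytes. The window of LOC107986606, whose nearest protein-coding gene is FAM83B, also held AP-1 sites 135 and 87 bases before the start.

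The 3 windows with the most AP-1 sites among those without an octamer are shown next, because AP-1 sites were the more frequent of both motifs. They belong to LOC124906269 (chr3:115790851-115791150, + strand), LOC105372663 (chr20:51366185-51366484, + strand) and PRECSIT (chr13:110870259-110870558, - strand), with the AP-1 sites in capitals.
LOC124906269: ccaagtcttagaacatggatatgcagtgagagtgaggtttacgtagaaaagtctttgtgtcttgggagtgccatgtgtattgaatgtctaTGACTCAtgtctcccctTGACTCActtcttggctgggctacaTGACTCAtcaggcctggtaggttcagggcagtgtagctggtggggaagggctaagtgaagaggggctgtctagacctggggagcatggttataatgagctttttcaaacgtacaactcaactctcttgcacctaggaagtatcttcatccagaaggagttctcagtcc
LOC105372663: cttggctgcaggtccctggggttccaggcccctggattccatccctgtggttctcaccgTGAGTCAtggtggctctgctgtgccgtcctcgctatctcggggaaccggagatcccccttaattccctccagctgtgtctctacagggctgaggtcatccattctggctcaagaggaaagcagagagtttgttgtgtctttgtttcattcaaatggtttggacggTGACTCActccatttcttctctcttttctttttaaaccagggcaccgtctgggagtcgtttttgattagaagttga
PRECSIT: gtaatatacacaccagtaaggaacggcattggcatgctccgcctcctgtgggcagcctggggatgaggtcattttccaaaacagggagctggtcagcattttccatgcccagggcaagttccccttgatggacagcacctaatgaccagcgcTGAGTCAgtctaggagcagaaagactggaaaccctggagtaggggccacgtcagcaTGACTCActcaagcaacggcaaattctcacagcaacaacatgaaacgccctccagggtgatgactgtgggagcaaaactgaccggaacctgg
LOC124906269 had 3 AP-1 sites, 160, 143 and 118 bases before its start and all within the peak, which is 1 of the 3 members nearest to LSAMP, a neural cell adhesion gene. LOC105372663 had sites 191 and 26 bases before its start, and the peak covered only the second. PRECSIT had sites 98 and 42 bases before its start, both in the peak.

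Counted over all 22 windows, the AP-1 site was found in 11 (50.0%, interval 28.2 to 71.8%), with 16 sites in all, and in 8 windows a site lay in the covered bases. Of all 34961 RefSeq windows of that length 4.92% held it, and of the 12830 windows of genes that are not protein-coding 6.49%. Among windows of noncoding genes met by other OCT-2 peaks, it stood in 5 of 19 at superenhancers (26.3%), 3 of 16 in gene bodies (18.8%), 4 of 12 far from genes (33.3%) and 0 of 34 at gene ends (interval up to 10.3%). The interval of the intergenic windows overlapped all of these except the last. The octamer stood in 3 of 22 (13.6%, interval 2.91 to 34.9%), against 1.77% of all windows and 15.8% of the 493 windows that any OCT-2 peak met. Of windows of noncoding genes, 1.97% held the octamer, and 10.7% of the 103 met by any peak. With up to 1 mismatch the octamer was found in 12 of 22 (54.5%), against 17% of all windows and 33.3% of those met by any peak. For windows of noncoding genes these shares were 23.1 and 35.0%. The TEAD motif GGAATG was found in 3 of 22 (13.6%) against 14.0% of all windows, and TATAAA in 1 of 22 (4.55%) against 11.5%. Of windows of noncoding genes, 17.1% held GGAATG and 15.1% TATAAA. AP-1, TEAD and TATA motifs were added after the data had been seen, the 3 windows of LOC105374852 overlap each other, and a match is a description of the letters, not of binding at that site.

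**Figure D1:**
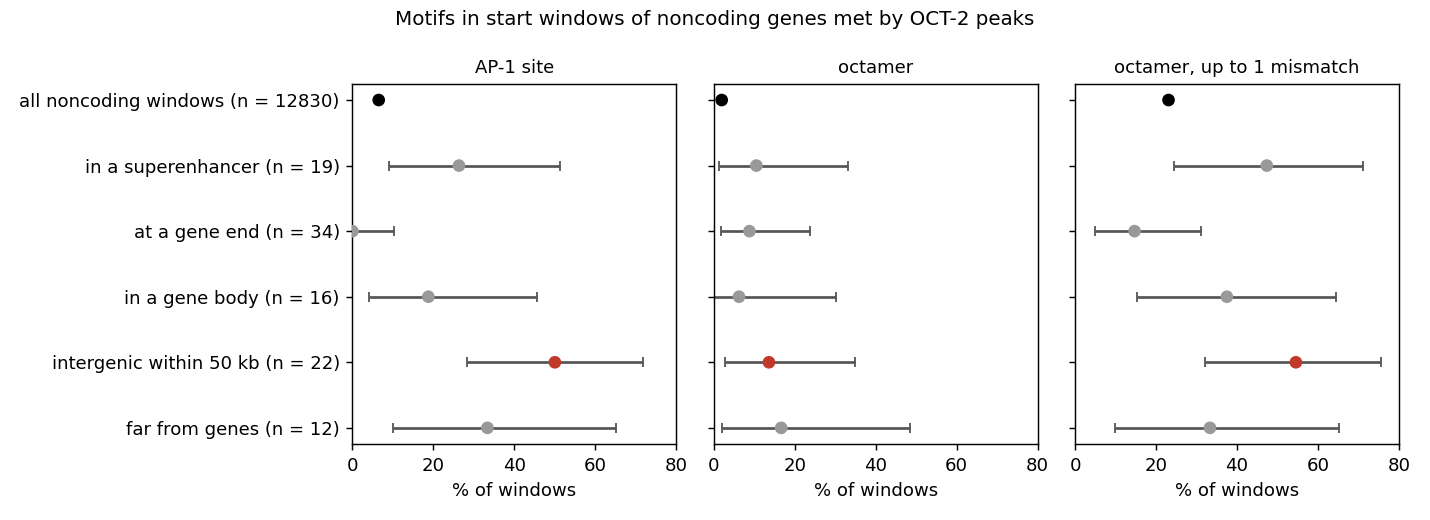
Share of start windows of noncoding genes with each motif (x axis, % of windows), for all noncoding windows (black) and for those met by OCT-2 peaks of each class (grey, members in red), with exact 95% intervals. The AP-1 share of the windows met by members, 50.0%, lies right of the other classes, while the octamer share, 13.6%, lies among them.

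Of 6 kinds of noncoding gene, small nuclear RNA genes most often had a member close by. Of 74 small nuclear RNA (snRNA) genes that lie in the territory of the members (the DNA meeting their rule), 10 had a member within 1 kb (13.5%, interval 6.68 to 23.5%). The share was 4.80% for transfer RNA genes (11 of 229, behind 8 members), 3.08% for lncRNA genes (139 of 4510), 1.28% for small nucleolar RNA genes (4 of 313), 0.643% for microRNA genes (2 of 311) and 0.38% for pseudogenes (23 of 6053). The kinds differ in length, with medians of 121.5 bp for snRNA, 73 bp for transfer RNA, 843 bp for pseudogenes and 7720 bp for lncRNA genes. The shares were not adjusted for length. Not every lncRNA gene that a member overlaps is among the 4510. Near any OCT-2 peak the shares were alike, 22 of 154 snRNA genes (14.3%) and 21 of 443 transfer RNA genes (4.74%), so they are not particular to the members. Of these 22 snRNA genes, 10 had a member, 8 a peak at a protein-coding gene end, 2 a peak in a superenhancer and 2 a peak in a gene body. The interval of the snRNA share stood above those of lncRNA, small nucleolar RNA, microRNA genes and pseudogenes and overlapped that of transfer RNA genes. Kinds with higher shares but few genes were left out of the 6. In the territory, a member lay within 1 kb of 2 of 3 Y RNA genes, 1 of 5 genes listed only as noncoding RNA and 1 of 1 telomerase RNA gene.

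**Figure D2:**
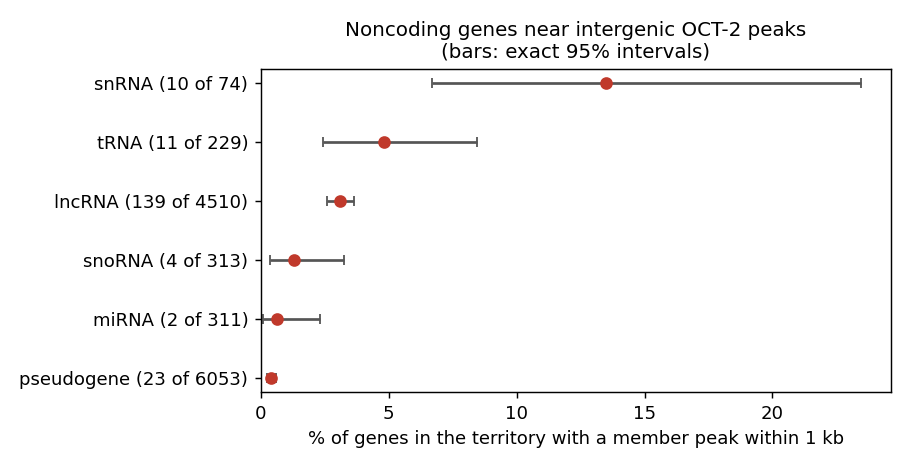
Share of noncoding genes in the territory that had a member within 1 kb (x axis, % of genes) for 6 kinds of gene, with exact 95% intervals. Of the 6 kinds plotted, small nuclear RNA genes stand highest at 13.5% and pseudogenes lowest at 0.38%. The kinds differ in gene length, for which the shares were not adjusted.

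The snRNA genes were RNU5A-1, RNU5B-1, RNU5D-1 and RNU5E-1 (U5, at the centre of the spliceosome), RNU6-1 and RNU6-8 (U6, its catalytic RNA), RNU6ATAC (of the minor spliceosome), RNVU1-31 (a U1 variant), and RNU2-63P and LOC124904147, which the RefSeq table also lists as snRNA genes. Every one of the 10 peaks lay beside its gene without touching it. The gap between gene and peak ran from 12 bp at RNU6ATAC to 87 bp at LOC124904147, and the middle of the peak stood 141 to 215 bp from the gene, with a median of 175. The peak of RNU6-1 spanned chr15:67840100-67840375 and that of RNU5A-1 chr15:65295788-65296025. The latter has a second member close by, chr15:65304381-65304626 at RNU5B-1, and both have PARP16 as the nearest protein-coding gene. The strand of these genes is not in the tables used here, so the side of the gene is not named. Small RNA genes exist in near-identical copies, and the sources used here do not say how reads matching several copies were handled.

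Both Y RNA genes near members, RNY1 and RNY3 (small RNAs of the Ro ribonucleoprotein), lie side by side on chromosome 7 and each had its own peak, chr7:148987317-148987554 and chr7:148983401-148983776. The middle of the peak stood 187 bp from RNY1 and 167 bp from RNY3. The peak of RNY1 lies at the start of the lncRNA gene GHET1, so its sequence can be shown (chr7:148987277-148987576, + strand of GHET1). It held no full octamer, and the capitals mark 2 overlapping matches with 1 mismatch each.
GHET1: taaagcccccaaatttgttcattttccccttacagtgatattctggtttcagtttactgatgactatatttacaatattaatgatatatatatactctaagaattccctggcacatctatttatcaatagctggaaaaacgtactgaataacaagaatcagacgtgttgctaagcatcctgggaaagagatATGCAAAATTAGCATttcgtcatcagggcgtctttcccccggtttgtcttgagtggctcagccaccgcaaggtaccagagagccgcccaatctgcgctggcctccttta
These matches stood 220 and 227 bp from RNY1. At RNU2-63P the full octamer, in the LOC105374852 window above, stood 209 bp from the snRNA gene. At both genes the motif was thus inside the peak and a little over 200 bp from the small RNA.

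**Figure D3:**
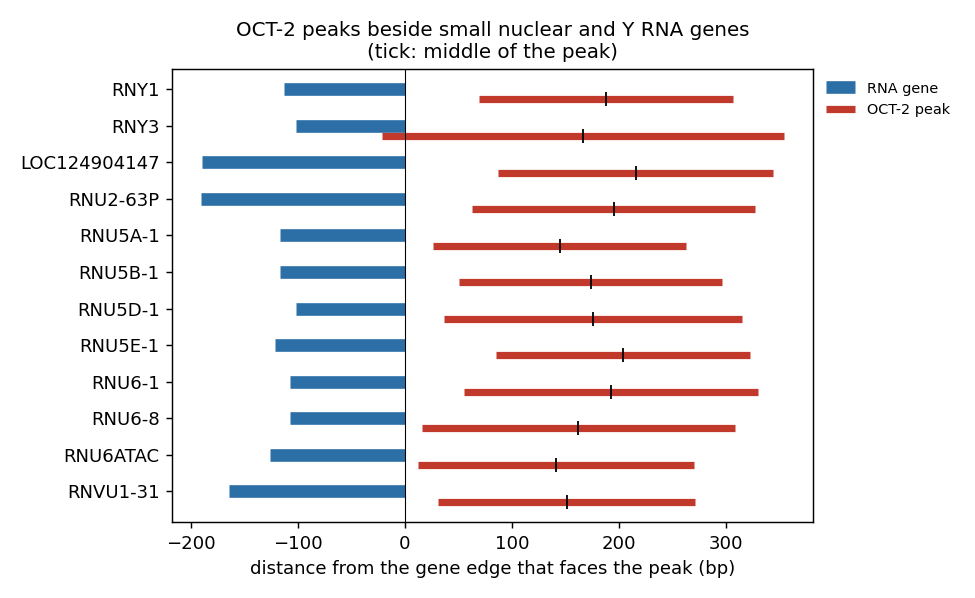
Members (red, black tick at the middle) beside 10 small nuclear and 2 Y RNA genes (blue); the x axis is the distance in bp from the gene edge that faces the peak. The middles lie 141 to 215 bp away, and only the peak of RNY3 touches its gene.

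Transfer RNA genes differed in layout, since 5 of 11 were overlapped by the peak. These were TRA-AGC11-1, TRG-GCC2-3, TRL-CAA1-1 and TRS-GCT5-1 on chromosome 6 and TRX-CAT1-8 on chromosome 17. The widest member over a small RNA gene overlapped part of TERC, the template RNA of telomerase, at chr3:169764835-169765281 (447 bp, 1.64 kb from ACTRT3). SCARNA2, a guide RNA of Cajal bodies, was overlapped by a peak of 393 bp, and SNORD104 by a peak of 383 bp. None of 4 vault RNA genes in the territory had a member within 1 kb.

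Of the 2 microRNA genes, MIR155 had a peak at chr21:25573730-25573979, which ends at the base before the hairpin begins. MIR155 yields miR-155, a microRNA of activated lymphocytes that is also raised in many breast cancers. MIR4491, 64 bp from its peak, lies beside POU2AF1. The mature RNAs, with the seed (bases 2 to 8) in capitals, share no seed, and they are shown to identify both genes.
hsa-miR-155-5p: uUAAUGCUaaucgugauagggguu
hsa-miR-155-3p: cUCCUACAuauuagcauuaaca
hsa-miR-4491: aAUGUGGAcuggugugaccaaa

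Long noncoding RNA genes were overlapped most often. A noncoding gene or pseudogene lay under 266 members (25.4%, interval 22.8 to 28.2%), and 240 of the members were on lncRNA genes, 231 genes in all. Of the 4510 lncRNA genes counted in the territory above, 118 were overlapped, so the 231 include genes outside that count. The share was 20.1% over all OCT-2 peaks, 9.04% in gene bodies, 18.3% at gene ends, 24.6% in superenhancers and 33.8% far from genes. RMEL3, first described in melanoma, held 4 members, the most of any lncRNA gene, over 140.3 kb beside ACTBL2. SAMD12-AS1, CAVIN2-AS1 and LINC01215 held 3 each, and LINC01215 did so within 13.5 kb. OSMR-DT, divergent from the receptor gene of oncostatin M, held 2. A lncRNA gene under a peak does not show that the RNA is made in these cells, as no RNA was measured.

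The members stood at nearly the density of the whole list. They numbered 1.88 per Mb of their 557.8 Mb of territory, against 1.85 in gene bodies, 0.989 far from genes, 6.12 at gene ends, 17.9 in superenhancers and 1.89 over all. Assembly gaps and DNA to which reads cannot be mapped were not removed from any class. Their part in these densities was not tested. The distance of members to the nearest protein-coding gene ran from 1.018 to 49.923 kb, with a median of 15.1 kb and quartiles of 6.50 and 28.2 kb. Per Mb, 2.14 lay at 1 to 5 kb, 1.86 at 5 to 10 kb, 1.96 at 10 to 20 kb, 1.73 at 20 to 30 kb, 1.65 at 30 to 40 kb and 1.81 at 40 to 50 kb. Density thus changed little over the whole range, with the first 5 kb highest. Just inside the limit of 1 kb were members at TMEM129 (1018 bp), MFN2 (1021 bp) and TEX2 (1032 bp), and just outside it peaks at STOM (970 bp), KLHL4 (933 bp) and TRIOBP (924 bp). Just inside 50 kb were members at RBM19 (49575 bp), SLC4A7 (49580 bp) and CTAGE1 (49923 bp), and beyond it peaks at CLIC5 (50010 bp), NRN1 (50031 bp) and ZBED5 (50156 bp).

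Of the 807 members beside a gene whose strand was known, 479 (59.4%) lay on the side where the gene starts and 328 on the side where it ends. Of the territory with a known side, 54.1% was on the start side, so that the density was 2.01 per Mb on the start side and 1.62 on the end side. The start side was higher in each of 6 distance ranges, from 2.36 against 1.77 per Mb at 1 to 5 kb to 1.91 against 1.44 at 40 to 50 kb. The smallest gap was at 10 to 20 kb, with 1.96 against 1.74. For 240 members the side was not known.

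**Figure D4:**
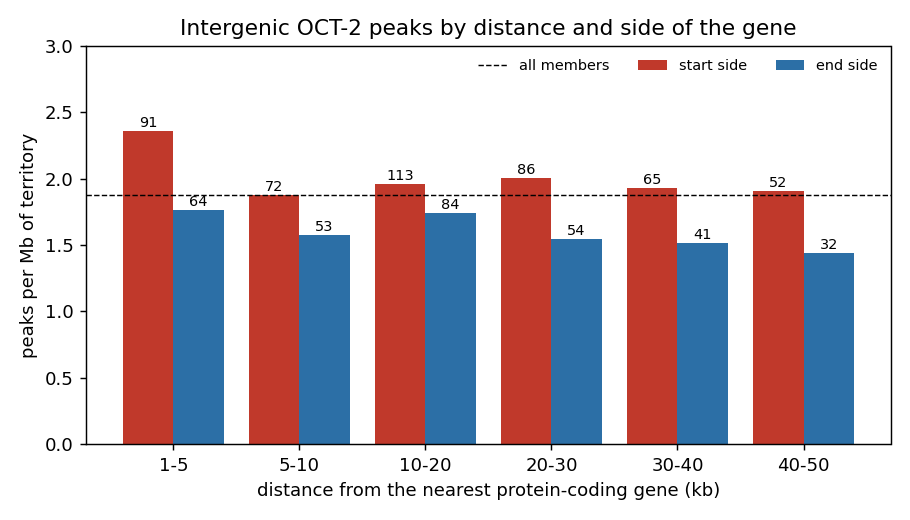
Members per Mb of territory (y axis) by distance from the nearest protein-coding gene in kb (x axis), on the start side (red) and the end side (blue) of the gene, with the number of members above each bar and the density of all members as a dashed line. The red bar is the taller in every range.

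Peak width was close to that of the whole list, with a median of 265 bp (quartiles 247 and 303) against 267 bp over all peaks and 275 bp in superenhancers. Members of 300 bp or more made up 26.7% (interval 24.1 to 29.5%), against 35.7% in superenhancers. Each member is a merge of 2 calls. The 10 widest, 442 to 465 bp, lay nearest to ELOC, LOC124900389, ACTBL2, ASAP1, C6orf141, ACTRT3, UHMK1, PKP1, PTGER2 and MEP1A. PKP1 encodes the desmosome protein plakophilin 1, PTGER2 a prostaglandin E2 receptor and ASAP1 a regulator of ARF GTPases in cell movement.

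Few members were near superenhancers, as in the other classes of peaks outside them. Within 50 kb of a superenhancer of the OCT-2 pool lay 33 (3.15%, interval 2.18 to 4.40%). The share was 2.58% for peaks in gene bodies, 2.27% far from genes and 0.937% at gene ends. The density of members was 2.33 per Mb of territory within 50 kb and 1.87 beyond. The median distance to the nearest superenhancer was 1417 kb. Another OCT-2 peak stood within 10 kb of 131 members (12.5%, interval 10.6 to 14.7%). The share was 15.1% over all peaks, 12.1% in gene bodies, 10.5% at gene ends, 34.7% in superenhancers and 9.51% far from genes. For 106 of these 131 members (80.9%) the nearest peak was itself a member. The matching share was not computed for other classes, so the 80.9% has no background.

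**Figure D5:**
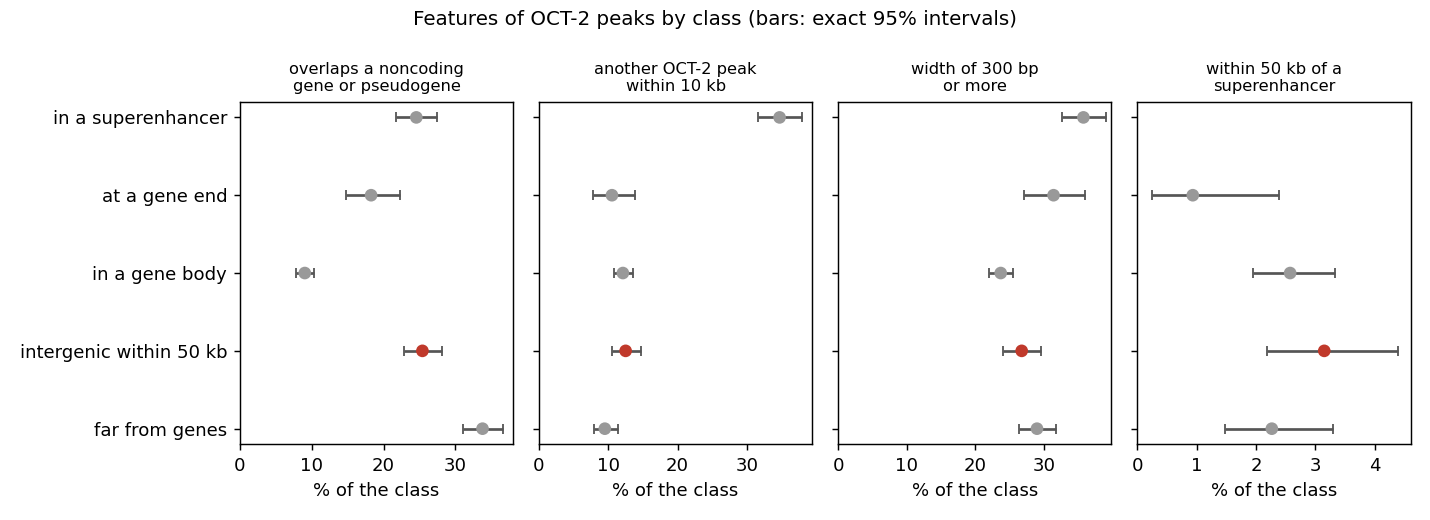
Share of OCT-2 peaks of each class (x axes, % of the class) that overlap a noncoding gene or pseudogene, have another peak within 10 kb, are 300 bp or wider, or lie within 50 kb of a superenhancer of the OCT-2 pool, with exact 95% intervals and members in red. The superenhancer class is left out of the last panel; members lie below it in neighbouring peaks (12.5 against 34.7%) and in width.

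Members in superenhancers of the control pool are sites that overlap a region called a superenhancer in 231Pa_Luc+GFP but none called in 231Pa_Luc+OCT-2. The lists give only the borders of these regions, so acetylation at the peak itself is not known. There were 21 (2.01%, interval 1.25 to 3.05%), in 16 regions, against 1.04% of peaks in gene bodies, 1.31% far from genes and 69.1% of the peaks in superenhancers of the OCT-2 pool. For 7 of these members the control region also overlapped a superenhancer of the OCT-2 pool, elsewhere along its length. The remaining 14 lay in 9 control regions that overlapped none. The widest of the 9 was near CDC42EP1 (191.5 kb), an effector of the CDC42 GTPase, followed by a region of 139.5 kb near PDP1 and TMEM67 with 3 members and one near CALM2 (134.4 kb), a calmodulin gene. Regions with an overlap included those near UBXN1, CACNG2, SLC44A3, DEF6, MEP1A, CA6 and KLF6. Since superenhancers were called above a limit, a region absent from a list may still carry the mark.

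At least 1 member was nearest to 918 of 19970 protein-coding genes (4.6%). Of these genes 809 had 1 member, 91 had 2, 16 had 3 and 2 had 4. Genes with a member had a median of 51.7 kb of territory around them, against 22.5 kb for genes with territory but without a member, so a gene in open surroundings had more room for one. The 2 genes with 4 were TMEM170B and ACTBL2, an actin-like gene, each with 98.0 kb of territory. The members of TMEM170B lay 1.741, 13.1, 26.0 and 37.5 kb away, to both sides. Those of ACTBL2 lay 5.486, 8.586, 44.1 and 45.5 kb away, all of them on RMEL3.

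Among the 16 genes with 3 members, named here after their counts were seen, are BATF3, IRF2, PIM1, VEGFC, MMP13 and NECTIN1. At BATF3, a leucine zipper partner of JUN, they lay 10.459, 14.6 and 18.9 kb away and spanned 8.743 kb. At PIM1, a serine/threonine kinase induced by cytokines, they lay 31.7, 32.3 and 35.2 kb on the start side and spanned 3.799 kb. At VEGFC, a lymphatic growth factor, they lay 21.9, 24.2 and 46.2 kb on the start side. At MMP13, a collagenase, they lay 17.9, 33.7 and 40.5 kb away, and at IRF2, an interferon regulatory factor, 3.911, 32.2 and 39.5 kb. Runs of members with gaps of at most 10 kb numbered 51, of which 46 were pairs and 5 held 3, beside IFT57 (2.662 kb), PIM1, BATF3, RANBP9 (9.334 kb) and FBXO34 (10.978 kb). Pairs lay near SOX9 (1.584 kb) and MACC1 (1.741 kb), among others, and were picked after they were seen.

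In 17 gene lists drawn up around these cells and OCT-2, 33 of 290 distinct genes had a member (11.4%), beside 4.6% of all protein-coding genes. List genes also had more territory, a median of 37.4 kb against 16.7 kb for all genes. Per Mb of that territory they had 3.68 members against 1.88 for all. The lists were chosen with results of these data known, so these counts are no independent evidence.

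Genes tied to metastasis of MDA-MB-231 had the largest share, 8 of 23 with 11 members (9.25 per Mb of territory). VCAM1, an adhesion molecule, had members 13.8 and 46.5 kb beyond its end. EREG, the EGF receptor ligand epiregulin, had them 6.115 and 27.3 kb beyond its end. TNC, the matrix protein tenascin C, had them 12.6 kb beyond its end and 46.5 kb before its start. CCN2, a matricellular target of YAP and TGF-β, had a peak of 275 bp 3.413 kb before its start (chr6:131954785-131955059), inside CCN2-AS1. ANGPTL4 had its member 8.016 kb and SERPINB2 4.499 kb before the start, whereas that of CSF2 lay 14.4 kb beyond the end and that of ST6GALNAC5 41.1 kb before the start. The other 15 genes of the list had none.

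Of 11 POU factor genes and coactivators, POU2AF1, POU3F1 and POU5F1 had a member (8.77 per Mb). POU2AF1 encodes OCA-B, the B lymphocyte coactivator that binds OCT-2 on the octamer, and its peaks lay 4.129 and 15.3 kb away at chr11:111347888-111348126 and chr11:111336658-111336925. POU3F1 had its member 6.396 kb before the start and POU5F1 33.0 kb away. Of 12 AP-1 family genes BATF3 and FOS did, with 4 members in 0.304 Mb of territory, FOS with a peak 19.5 kb before its start. This is 13.2 per Mb, the highest of the 17 lists, against 1.88 for all genes. It rests on few members in a small territory, and 3 of them form a run of 8.743 kb at BATF3.

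In the mesenchymal list 4 of 22 genes had a member, among them ETS1 (5.786 kb), FOXC1 (11.7 kb) and TNC. For TGF-β and BMP signalling it was 4 of 27, among them ID3 17.8 kb before its start, BMP4 11.3 kb beyond its end, and TGFB2 35.5 and 48.4 kb beyond its end. The hypoxia list had 3 of 16, namely EPAS1, the gene of HIF-2α, with peaks 22.5 and 24.5 kb beyond its end, VEGFA at 10.7 kb and LOXL2 at 6.62 kb. YAP, TAZ and TEAD genes and targets had 3 of 18, ANKRD1 at 7.271 kb before its start, CCN2 and TGFB2. Integrins, laminins and collagens had 3 of 24, COL1A1, COL5A1 and ITGB6.

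For genes of cell identity and the remaining lists, the background is 4.6% of all protein-coding genes and 1.88 members per Mb. Luminal genes had 2 of 20 (ELF3 and GRHL2, epithelial transcription factors), basal genes 2 of 14 (TP63 and COL17A1) and B lymphocyte genes 1 of 20, PRDM1, 19.7 kb beyond its end. The densities of these lists were 2.57, 5.09 and 1.25 members per Mb of territory. POU2AF1, a B lymphocyte marker with 2 members, was counted in the POU list only, so the B lymphocyte values leave it out. Receptor tyrosine kinase and RAS genes had 1 of 21 (SPRY1), neural and melanoma markers 1 of 12 (NEFL), and leukocyte, fibroblast and endothelial markers 1 of 14 (COL1A1). Their densities were 0.971, 2.32 and 1.71 per Mb. With 1 or 2 genes per list, these counts are too few to set a list apart from all genes. None of 26 NF-κB and cytokine genes, 19 cell cycle and survival genes and 7 housekeeping genes known to depend on the octamer had one. These lists had 0.752, 0.580 and 0.0994 Mb of territory, respectively, so there was little room for a member. At 1.88 members per Mb, such absences do not set a list apart from all genes either. CSF2, BAK1 and PIM1 had members and were thus on none of these lists, so the absences cover the listed genes only.

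Across chromosomes the density of members ran from 0.407 per Mb of territory on chromosome X to 3.54 on chromosome 6, with a median of 1.90. Chromosome 14 had 3.03, chromosome 15 had 0.764 and chromosome 16 had 0.446. The members' share of a chromosome's peaks varied less, from 12.2% on chromosome 10 to 29.0% on chromosome 21, with 18.4% on X and 13.7% on chromosome 16, against 18.3% over all. The number of copies of each chromosome in these cells was not measured, and its part in these densities was not tested.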

How the data were processed

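OCT-2 and H3K27ac ChIP-seq of 231Pa_Luc+OCT-2 and H3K27ac ChIP-seq of 231Pa_Luc+GFP (2 replicates each) were used through 3 lists of region positions deposited by the authors in hg38: 5741 OCT-2 peaks, 518 superenhancers of the OCT-2 pool and 337 of the GFP pool. Per the labels, OCT-2 regions were calculated from both replicates. Per the submitters' processing notes, Bowtie2 2.2.2.6, Bowtie, HOMER and bedtools were used, without a stated role; the threshold and control of peak calling are not given there. The positions carry no read depth. 7 lists in hg19 were not used.

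5 peaks on unplaced contigs were left out. Peaks were classed in order as in a superenhancer (overlap of 1 bp), in or within 1 kb of a protein-coding gene, and by distance from the peak edge, with 19970 protein-coding genes of 59094 RefSeq genes (GRCh38.p14). Strand came from the RefSeq promoter table and was known for 79.2% of protein-coding genes. Territory is the DNA that meets the members' rule, with assembly gaps and unmappable DNA not removed. Motifs were searched in 35116 promoter windows of 300 bases, 34961 of them distinct. The members and gene lists were chosen with earlier results of these data known.

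Genes named are those with 4 members, the nearest genes of the 10 widest members, list genes with a member, small RNA genes within 1 kb, lncRNA genes with most members, members nearest to both limits, and control superenhancers with a member. The same rule asked for members with most merged calls, but every member merges 2. A gene that the rule takes is not reported here. The classing was tested on simulated data. No paired or replicate test could be made. Python 3.11.15, numpy 2.4.6, pandas 2.3.3, scipy 1.17.1 and matplotlib 3.10.9 were used.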

Additional observations from a re-analysis of the deposited data

How the results depend on the processing

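Of 24 alternatives over 9 results, 15 left a count within 1.5 times or a share or median within its 95% interval, and 9 did not. Among the 15, an upper limit of 25 or 100 kb gave 740 or 1393 members against 1047. The share near a superenhancer was 0.382% within 10 kb and 7.64% within 100 kb, and extending noncoding genes by 1 kb gave 29.4% overlapped. Another peak stood within 5 kb of 7.35% and within 25 kb of 23.7% of members. These moves follow from the wider or narrower window. Counting only other members as neighbours within 10 kb gave 10.2%. With the nearest gene taken by start site alone, 716 of the 992 members on chromosomes with stranded genes (72.2%) lay on the start side, and 589 of the 807 with a known side (73.0%), against 59.4%. Under this rule a member beyond a gene's end is farther from that gene by the length of the gene. The start-side share of the territory under this rule was not computed, so 72.2 and 73.0% have no background. How much of the change this makes was not tested. Allowing 1 mismatch, 0.955% of members met a noncoding start window with an octamer, against 0.287%. No paired analysis was possible because the lists hold no value per replicate, and for the same reason no replicate was left out. A stricter calling threshold and members with more than 2 merged calls were not run, as no score is listed and no such member exists. The restriction to those 807, the 25 kb limit and the removal of control superenhancers for list genes (26 and 33 genes, against 33), like the AP-1, TEAD and TATA motifs, were chosen after seeing the data. Depth limits all absences. A gene without a member was not the nearest gene of any listed peak that met the members' rule. It may have listed peaks of the other classes, which are not given here per gene. Nor does the lack of a listed peak show that OCT-2 was absent.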

Other observations

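A few members lay in antigen receptor loci, whose V segments are not counted as protein-coding genes in the RefSeq table. On chromosome 14, 2 members stood in the T cell receptor alpha locus, at chr14:21680196-21680433 and chr14:21703906-21704210, with the olfactory receptor gene OR4E1 as nearest protein-coding gene (6.378 and 30.1 kb). On chromosome 7, 1 member stood in the T cell receptor beta locus at chr7:142808022-142808307, 33.5 kb from the trypsinogen gene PRSS2. Another member covered part of IGLV8OR8-1, a lambda light chain V segment outside its locus, on chromosome 8. They were picked after they were seen.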
